A study of Mus musculus with 18 samples.

Results

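The genes described here are 10 genes of matrix breakdown and its control: the matrix metalloproteinases Mmp2 and Mmp14, the disintegrin metalloprotease Adam12, the ADAMTS proteases Adamts2 and Adamts12, the ADAMTS-like protein Adamtsl2, and the tissue inhibitors of metalloproteinases Timp1, Timp2, Timp3 and Timp4. They were chosen by their gene symbols from the 22609 genes that every library lists, with their diet differences in these same libraries already known. Their diet differences are therefore given as a description, with no p-value. Whether a diet value passed a threshold, in the main fit or in an alternative, is likewise a description and not evidence for it. Messenger RNA was sequenced from 3 organs, heart, kidney and liver, of C57BL/6J wild-type mice, an inbred strain, which ate a ketogenic diet or standard chow. In the ketogenic groups, mice ate a diet of 90% fat, 9.7% protein and 0.3% carbohydrate. Both diets were started at 4 weeks of age and lasted 21 days, and no transgene, deletion or drug is named for any group. Each organ and diet had 3 libraries, which gives 6 groups and 18 libraries.

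Extracellular matrix is built from collagens, elastin, fibrillins and proteoglycans, and secreted or membrane-bound zinc proteases cut it. Metalloproteinases of the MMP family are made as inactive precursors. MMP14, which is anchored in the cell membrane, activates MMP2 with the help of TIMP2. ADAMTS proteases process procollagens and proteoglycans, ADAMTS-like proteins lack the protease domain and bind microfibrils, and TIMPs block the active site of MMPs and, in the case of TIMP3, also of several ADAM and ADAMTS enzymes. In heart, kidney and liver much of this machinery is made by fibroblasts and related stromal cells. These are mRNA levels of genes whose products are regulated after translation, and no enzyme activity was measured.

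The libraries held 16135276 to 23835383 counts each. Defining markers matched the organ labels: 6 cardiomyocyte genes summed to 52615 to 68454 CPM (counts scaled to the size of the library) in the hearts and at most 18.5 CPM elsewhere, 6 kidney tubule genes to 17872 to 21268 CPM in the kidneys and at most 15.2 CPM elsewhere, and 5 hepatocyte genes to 69134 to 120376 CPM in the livers and at most 206 CPM elsewhere. Ketogenic replicates 1 and 2 differed little in heart and in liver. Their median chi-square per gene was 0.668 in heart and 0.708 in liver, against 0.455 for counting error alone and 1.28 to 4.77 for the other pairs within a group. Each of these pairs was counted as 1 sample in means and SDs, so n = 2 for ketogenic hearts and livers and n = 3 elsewhere. The tests below took both libraries of a pair as separate samples. Their SEs and adjusted p-values in heart and liver thus treat the 2 libraries as independent, and alternative fits summed the pair. Chow heart replicate 3 stood apart, with 12088 CPM of 4 atrial markers against 40.8 to 132 CPM in the other 5 hearts.

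In RefSeq's table of mouse promoters (GRCm38.p6), 8 of the 10 genes have an entry. The 250 bases before the transcription start of 4 genes are shown because their diet differences took different directions: Mmp14 and Adamts2 were lower in heart and liver, Adamtsl2 was lower in heart and higher in liver, and Timp4 was higher in heart. Capitals mark matches on either strand to 3 promoter motifs, each searched by the letters given with its frequency in the sentences after the sequences. In Mmp14 a GC box and a CCAAT match share a base.
Mmp14 (chr14:54431348-54431597, plus strand): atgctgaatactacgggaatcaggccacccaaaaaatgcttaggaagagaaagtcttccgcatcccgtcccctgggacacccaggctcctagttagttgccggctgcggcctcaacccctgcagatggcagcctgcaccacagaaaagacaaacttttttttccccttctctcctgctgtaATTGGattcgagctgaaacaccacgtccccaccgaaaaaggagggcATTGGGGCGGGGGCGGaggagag
Adamts2 (chr11:50601835-50602084, plus strand): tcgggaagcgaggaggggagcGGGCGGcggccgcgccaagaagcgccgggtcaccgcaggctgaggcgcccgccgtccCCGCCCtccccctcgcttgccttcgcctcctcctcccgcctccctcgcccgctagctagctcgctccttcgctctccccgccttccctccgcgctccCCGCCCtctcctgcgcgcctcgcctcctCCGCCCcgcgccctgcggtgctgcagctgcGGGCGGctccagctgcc
Adamtsl2 (chr2:27079129-27079378, plus strand): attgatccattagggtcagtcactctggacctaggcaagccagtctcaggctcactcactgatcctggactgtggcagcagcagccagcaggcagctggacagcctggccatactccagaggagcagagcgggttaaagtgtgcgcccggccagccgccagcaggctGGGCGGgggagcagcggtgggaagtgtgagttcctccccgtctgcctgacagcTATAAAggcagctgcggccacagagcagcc
Timp4 (chr6:115252206-115252455, minus strand): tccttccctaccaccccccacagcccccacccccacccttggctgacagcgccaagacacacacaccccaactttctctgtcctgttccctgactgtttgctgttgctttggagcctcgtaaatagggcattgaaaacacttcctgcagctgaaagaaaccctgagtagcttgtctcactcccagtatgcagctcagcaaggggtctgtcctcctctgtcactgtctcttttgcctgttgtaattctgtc
The Adamts2 sequence holds 5 GC boxes and is 78% G and C, against a median of 52.4% over all 32851 promoters in the table. Of the 4 sequences, the Adamtsl2 one has the TATA box, 30 to 25 bases before the start. GC boxes, searched as GGGCGG, occur in 6 of the 8 promoters of these genes and in 32.7% of all promoters, the TATA box, searched as TATAAA, in 1 of 8 and 12.4%, and the box named for its letters CCAAT in 3 of 8 and 33.8%. An AP-1 site (TGANTCA) matched in 0 of 8 and 6.75%, and an E-box (CACGTG) in 0 of 8 and 6.02%. A match is a description of the letters and not evidence that a factor binds.

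The 5 proteases had lower values in every ketogenic library than in any chow library of the same organ, past the threshold in all cases but Adamts2 in kidney. The share of all genes whose diets did not overlap is not given. A lack of overlap, here and below, is therefore a description from which nothing is read. The inhibitors and Adamtsl2 took different directions by gene and organ. A gene passed the threshold at an adjusted p under 0.05 in edgeR's quasi-likelihood test over all genes of the organ. In heart 8 of the 10 genes passed as lower, against 12.2% of all 13411 genes tested, and 1 passed as higher, against 12.5%. In kidney 4 of 8 tested passed as lower, against 5.45% of 14526 genes. In edgeR 0 of the 8 passed as higher, against 3.59% of all, with 1 at an unadjusted p under 0.05 and 1 by DESeq2. In liver 5 of 8 tested passed as lower, against 23.3% of 12947 genes, and 2 as higher, against 24.3%. Because these contrasts served to choose the genes, nothing is read from those shares. With ketogenic libraries 1 and 2 summed, 6 genes passed as lower and 1 as higher in heart, and 5 and 1 in liver. Without chow heart replicate 3 the heart counts were 8 and 2, and without ketogenic kidney replicate 1 the kidney counts were 5 and 1. Timp1 and Timp4 were below the count filter in kidney and liver and were not tested there. In bulk tissue, fewer cells of a type and less RNA per cell cannot be told apart.

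**Figure D1:**
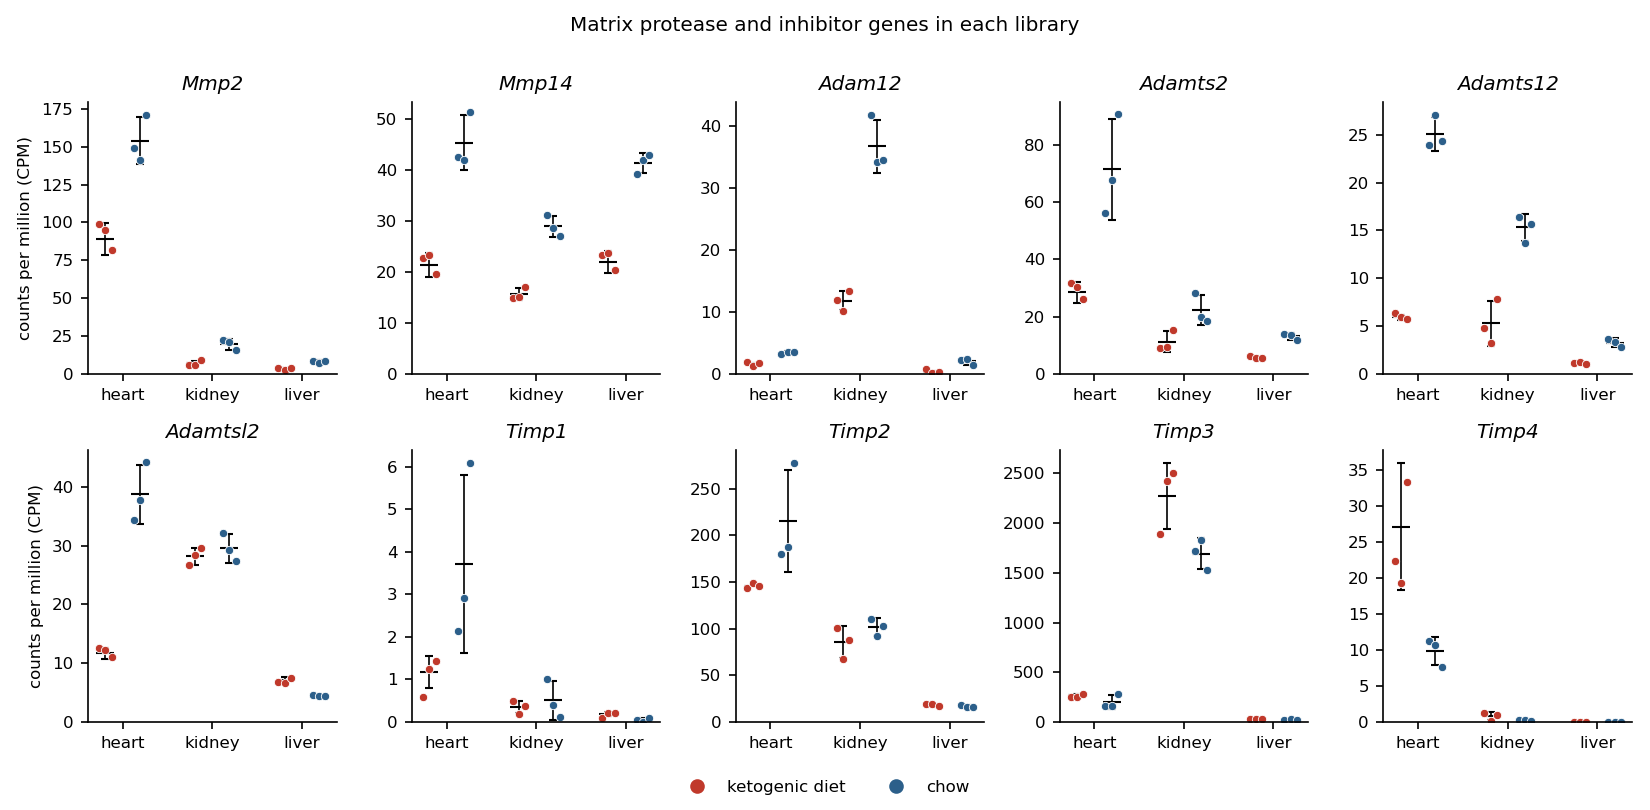
CPM of each gene (vertical axes, from 0) in every ketogenic and chow library of heart, kidney and liver; points are libraries, bars are mean ± SD with near-identical libraries counted once. The ketogenic points of Mmp2, Mmp14, Adam12, Adamts2 and Adamts12 lie below the chow points in all 3 organs, and those of Timp4 lie above them in heart.

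Mmp2 encodes gelatinase A, a secreted protease that cuts denatured collagen and basement membrane collagen; the gene lies on chromosome 8 at 95351227 to 95377319 of build mm9, plus strand. In heart it had 98.8, 94.8 and 81.8 CPM on the ketogenic diet, against 149, 141 and 171 CPM on chow. In kidney it had 6.01, 5.82 and 8.95 CPM on the ketogenic diet, against 22, 20.8 and 15.6 CPM on chow. In liver it had 3.79, 2.74 and 3.83 CPM on the ketogenic diet, against 8.71, 7.38 and 8.30 CPM on chow. In no organ did the diets overlap. The log2 fold change, ketogenic over chow, was -0.74 in heart (SE 0.10), -1.48 in kidney (SE 0.20) and -1.23 in liver (SE 0.16), and Mmp2 passed as lower in all 3 organs, also when any single library was left out.

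Mmp14 encodes the membrane-type protease that cuts fibrillar collagen and activates MMP2 (chromosome 14, 55050441 to 55060095, mm9, plus strand). Ketogenic hearts had 22.7, 23.2 and 19.6 CPM, against 42.5, 41.9 and 51.4 CPM in chow hearts. Ketogenic kidneys had 14.8, 15.1 and 17 CPM, against 31.1, 28.5 and 27.1 CPM in chow kidneys. Ketogenic livers had 23.2, 23.6 and 20.3 CPM, against 39.1, 42.0 and 42.9 CPM in chow livers. Each ketogenic library was below each chow library of its organ. The log2 fold changes lay close together, at -1.05 in heart (SE 0.11), -0.88 in kidney (SE 0.10) and -0.88 in liver (SE 0.09), and each passed with any single library left out.

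Adam12 encodes a disintegrin metalloprotease of mesenchymal cells that occurs in membrane-bound and secreted forms (chromosome 7, 141074883 to 141416780, mm9, minus strand). It was most abundant in kidney, with 12, 10.2 and 13.3 CPM on the ketogenic diet, against 41.8, 34.2 and 34.5 CPM on chow. In heart it had 1.90, 1.24 and 1.69 CPM on the ketogenic diet, against 3.17, 3.53 and 3.59 CPM on chow. Livers held few reads, with counts of 15, 3 and 5 on the ketogenic diet, against 50, 58 and 31 on chow. The groups did not overlap in any organ. Adam12 fell in all 3, with a log2 fold change of -1.09 in heart (SE 0.23), -1.64 in kidney (SE 0.12) and -2.34 in liver (SE 0.44). Without ketogenic heart replicate 2 the heart value was -0.93 and no longer passed. Ketogenic liver replicate 1 held 15 of the 23 ketogenic counts, and without it the liver value was -3.22, against -1.97 without ketogenic liver replicate 2; both passed.

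Adamts2 encodes the enzyme that removes the amino-terminal propeptide of fibrillar procollagens (chromosome 11, 50415587 to 50617551, mm9, plus strand). Ketogenic hearts had 31.8, 30.4 and 26.0 CPM, against 56.0, 67.6 and 90.6 CPM in chow hearts, the last being replicate 3. In liver the values were 6.08, 5.63 and 5.61 CPM on the ketogenic diet, against 14, 13.6 and 11.7 CPM on chow. In kidney they were 8.95, 9.29 and 15.3 CPM on the ketogenic diet, against 28.2, 19.7 and 18.6 CPM on chow. No library of one diet fell within the range of the other in any organ. The gene fell in heart (log2 fold change -1.28, SE 0.18) and liver (-1.18, SE 0.12). The kidney value of -0.98 (SE 0.25) did not pass, but it was -1.28 and passed without ketogenic kidney replicate 3, the highest of its group, as well as by DESeq2 (-0.98), with total-count scaling (-1.07) and in the model of all 18 libraries (-0.96).

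Adamts12 encodes a secreted protease known to cut cartilage oligomeric matrix protein (chromosome 15, 10994545 to 11276622, mm9, plus strand). In heart it had 6.32, 5.90 and 5.72 CPM on the ketogenic diet, against 23.9, 27.1 and 24.3 CPM on chow. That is a mean of 5.92 ± 0.271 CPM (SD, n = 2) on the ketogenic diet and 25.1 ± 1.76 CPM (SD, n = 3) on chow, with a log2 fold change of -2.06 (SE 0.10). Among the 5 proteases this was the largest fall in heart, and chow heart replicate 3 lay between the other chow hearts. Ketogenic kidneys had 4.80, 3.20 and 7.78 CPM, against 16.4, 13.7 and 15.7 CPM in chow kidneys. Ketogenic livers had 1.15, 1.21 and 1.02 CPM, against 3.67, 3.36 and 2.75 CPM in chow livers. The diets did not overlap in either organ, and the gene fell in both, with log2 fold changes of -1.52 in kidney (SE 0.28) and -1.53 in liver (SE 0.22). The kidney call was lost without chow kidney replicate 1 (-1.47) or replicate 3 (-1.50).

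Adamtsl2, whose product lacks a protease domain and binds fibrillin microfibrils, did not follow the proteases in kidney and liver (chromosome 2, 26934901 to 26964133, mm9, plus strand). Ketogenic hearts had 12.5, 12.3 and 11.1 CPM, against 34.3, 37.7 and 44.2 CPM in chow hearts. Ketogenic kidneys had 26.7, 28.4 and 29.6 CPM, against 32.1, 29.2 and 27.3 CPM in chow kidneys. Ketogenic livers had 6.73, 6.58 and 7.49 CPM, against 4.63, 4.49 and 4.38 CPM in chow livers. All ketogenic libraries were below chow in heart, the groups overlapped in kidney, and all ketogenic libraries were above chow in liver. The log2 fold change was -1.70 in heart (SE 0.11), -0.06 in kidney (SE 0.09) and 0.62 in liver (SE 0.14). The heart fall and the liver rise passed under each of the 14 alternatives tried, and the kidney value passed under none of 13.

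The organs' fold changes were also subtracted from each other in 1 edgeR model of all 18 libraries. These differences share the chosen contrasts and are a description. Between heart and kidney 1 of the 10 genes passed, Adamtsl2, against 5.43% of all 15495 genes. Between heart and liver 4 passed (Adam12, Adamtsl2, Timp1 and Timp2), against 32.7% of all genes, and between kidney and liver 1 passed, again Adamtsl2, against 29.2%. For the other genes the fold changes of 2 organs are not shown to differ, which does not show that they are equal.

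**Figure D2:**
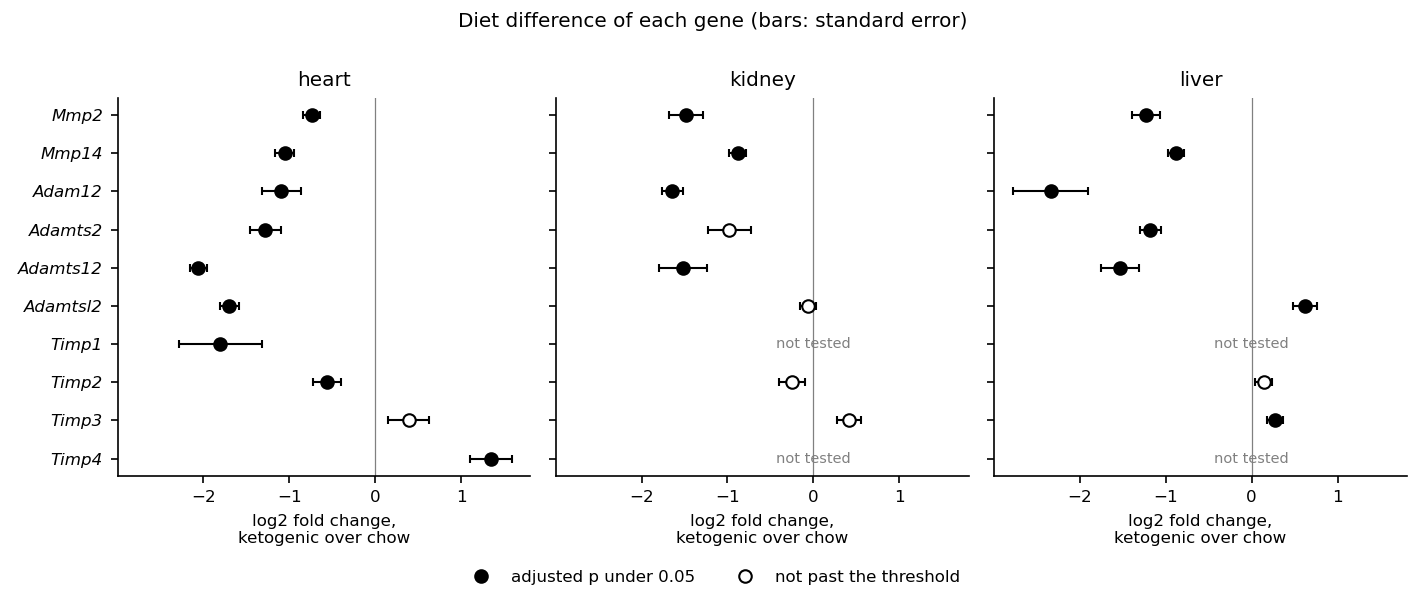
Log2 fold change, ketogenic over chow, of each gene in heart, kidney and liver (horizontal axis; bars are standard errors, filled points passed an adjusted p under 0.05). The 5 proteases lie left of 0 in all 3 panels, and Adamtsl2 lies at -1.70 in heart, -0.06 in kidney and 0.62 in liver.

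Among the 4 inhibitors in heart, Timp1 and Timp2 fell, Timp4 rose and Timp3 did not pass. Timp1, a soluble inhibitor of many MMPs (chromosome X, 20447292 to 20451863, mm9, plus strand, inside an intron of Syn1 on the other strand), had few reads, with 11, 21 and 22 counts in ketogenic hearts, against 39, 52 and 149 counts in chow hearts. That is 0.579, 1.24 and 1.43 CPM on the ketogenic diet, against 2.13, 2.92 and 6.08 CPM on chow. The groups did not overlap, with chow heart replicate 3 the highest. The fall of -1.80 (log2, SE 0.48) lost its call when any single ketogenic heart was left out (-1.48, -1.91 and -2.05) and when ketogenic hearts 1 and 2 were summed (-1.73). Kidneys had 8, 3 and 7 counts on the ketogenic diet, against 18, 7 and 2 on chow, a ratio of 0.722 (exact 95% interval 0.375 to 1.36). Livers had 2, 4 and 4 counts on the ketogenic diet, against 1, 0 and 2 on chow, a ratio of 3.87 (exact 95% interval 0.997 to 21.9). These intervals cover counting error only, and both leave a ratio of 1 inside.

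Timp2, the inhibitor that takes part in MMP2 activation at the cell surface (chromosome 11, 118162375 to 118216725, mm9, minus strand), had 144, 149 and 146 CPM in ketogenic hearts, against 180.4, 187 and 278 CPM in chow hearts. The ketogenic hearts lay close together below all chow hearts, and the log2 fold change of -0.56 (SE 0.16) passed. Without chow heart replicate 3 it was -0.32 and also passed. It no longer passed without any single ketogenic heart (-0.54, -0.57 and -0.55), with the ketogenic pair summed (-0.56) or without a count filter (-0.55). Ketogenic kidneys had 101, 67.1 and 87.6 CPM, against 110.4, 91.6 and 103 CPM in chow kidneys. Ketogenic livers had 18.8, 19.2 and 17.4 CPM, against 18.1, 16.2 and 15.9 CPM in chow livers. Both organs showed overlapping groups, and neither the kidney value of -0.25 (SE 0.15) nor the liver value of 0.14 (SE 0.10) passed. Without ketogenic kidney replicate 1 the kidney value was -0.39 and passed.

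Timp3, the inhibitor held in the matrix, which also blocks ADAM17 and several ADAMTS enzymes, lies on chromosome 10 at 85763157 to 85812250 (mm9, plus strand), inside an intron of Syn3 on the other strand. Ketogenic kidneys had 1888, 2422 and 2499.6 CPM, against 1720.5, 1833 and 1527 CPM in chow kidneys. Ketogenic hearts had 255, 251 and 279 CPM, against 159.7, 157 and 283 CPM in chow hearts. Ketogenic livers had 27.5, 26.8 and 27.9 CPM, against 21.9, 24.9 and 21.4 CPM in chow livers. The groups did not overlap in kidney and liver, while in heart chow replicate 3 reached the ketogenic level. The log2 fold change was 0.39 in heart (SE 0.24), 0.42 in kidney (SE 0.14) and 0.27 in liver (SE 0.09), of which the liver value passed. Leaving out chow heart replicate 3 gave 0.73 in heart, and leaving out ketogenic kidney replicate 1 gave 0.54 in kidney, both of which passed; the kidney value also passed by DESeq2 (0.43). The liver call held in 8 of 15 fits, the one described included. It was lost without ketogenic liver replicate 1 (0.27) or 2 (0.28), without chow liver replicate 1 (0.24) or 3 (0.23), by DESeq2 (0.27), with the ketogenic pair summed (0.28) and in the model of all 18 libraries (0.25).

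Timp4, a TIMP whose transcript is known from heart, lies on chromosome 6 at 115195634 to 115201867 (mm9, minus strand), inside an intron of Syn2 on the other strand. It had 22.4, 19.3 and 33.3 CPM in ketogenic hearts, against 11.3, 10.7 and 7.59 CPM in chow hearts. All ketogenic hearts were above all chow hearts, with ketogenic replicate 3 the highest and chow replicate 3 the lowest. Timp4 rose by 1.35 on the log2 scale (SE 0.24), and the rise passed under all 14 alternatives. Kidneys had 20, 2 and 18 counts on the ketogenic diet, against 4, 6 and 3 on chow. The ketogenic counts were high in replicates 1 and 3 and lowest of all in replicate 2, so the groups overlapped. The ratio of the summed counts was 3.33 (exact 95% interval 1.75 to 6.79, counting error only). In the same kidneys 6 adipocyte markers summed to 238, 52.5 and 328 CPM on the ketogenic diet, against 51.0, 106 and 127 CPM on chow. Ketogenic replicates 1 and 3 were thus highest for these markers too, and a link to Timp4 was not tested. The livers had 0 counts on both diets, which allows at most 0.0709 CPM over the ketogenic livers and 0.0610 CPM over the chow livers (3 counts per group).

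Because exon length differs between genes, the TIMPs were also compared per kilobase of exon. In heart Timp3 made up 49.3, 48.8 and 47.7% of the summed TIMP level on the ketogenic diet, against 36.2, 35.0 and 40.5% on chow. Timp2 made up 35.9, 37.5 and 32.2% in ketogenic hearts, against 52.8, 53.7 and 51.4% in chow hearts. Timp4 made up 14.3, 12.4 and 18.8% in ketogenic hearts, against 8.47, 7.84 and 3.59% in chow hearts. The leading inhibitor transcript was thus Timp3 in each ketogenic heart and Timp2 in each chow heart, chow replicate 3 included. In kidney Timp3 made up 93.2 to 96.5% on the ketogenic diet and 91.9 to 93.8% on chow. In liver Timp3 took 50.9 to 54.2% on the ketogenic diet and 48.0 to 54.3% on chow, with Timp2 most of the rest.

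The summed TIMP level was set against the summed level of Mmp2 and Mmp14, a ratio that the scaling of a library cannot change. In heart it was 2.69, 2.74 and 3.63 on the ketogenic diet, against 1.44, 1.54 and 1.96 on chow. In kidney it was 56.3, 69.4 and 58.8 on the ketogenic diet, against 20.8, 23.5 and 22.8 on chow. In liver it was 1.10, 1.13 and 1.21 on the ketogenic diet, against 0.544, 0.527 and 0.470 on chow. The ratio was higher on the ketogenic diet in each organ with no overlap, and it exceeded 1 in ketogenic but not in chow livers. Other MMP genes do not enter the ratio. In liver Mmp19 averaged 68.5 CPM on the ketogenic diet and 112 CPM on chow, against 21.9 and 41.3 CPM for Mmp14. Mmp15 averaged 57.5 and 65.3 CPM in liver and 197 and 234 CPM in heart, in the same order. The crossing of 1 in liver is a statement about Mmp2 and Mmp14 alone. The numerator and the denominator both come from genes chosen for their diet differences, and mRNA ratios are not ratios of active protein.

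**Figure D3:**
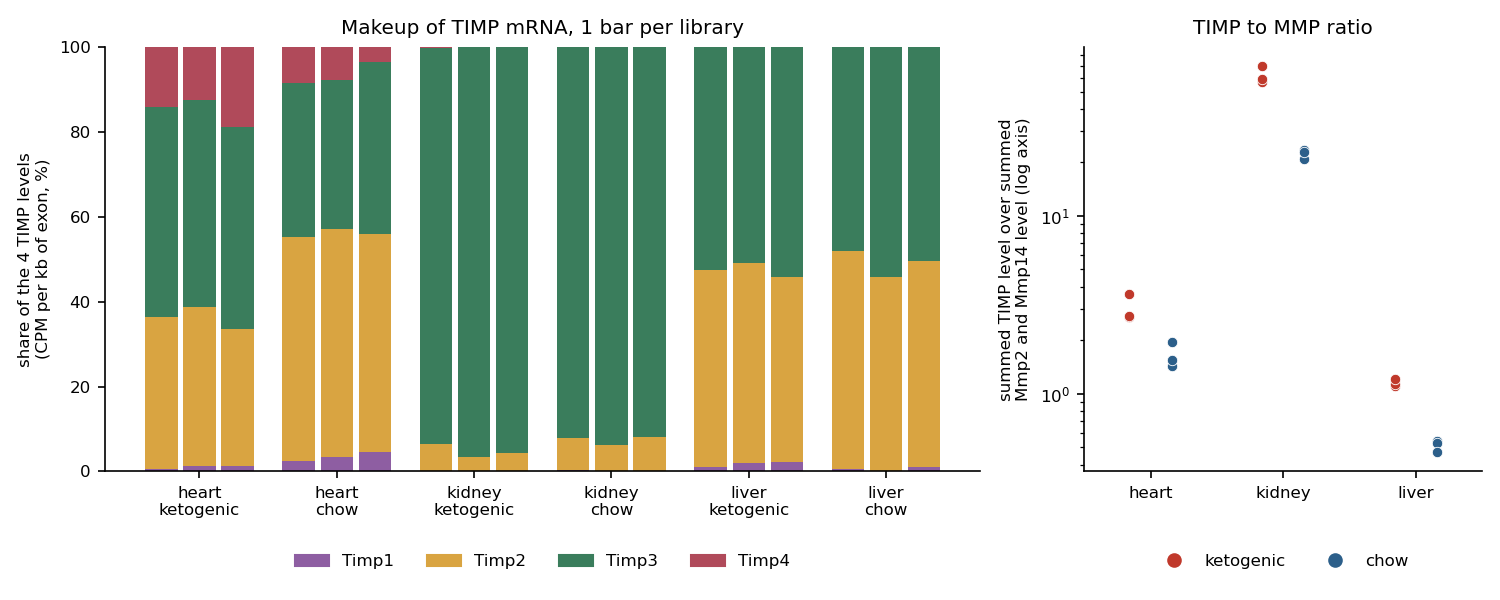
Left, share of each TIMP in the summed TIMP level (CPM per kilobase of exon, %) with 1 bar per library. Right, summed TIMP level over the summed Mmp2 and Mmp14 level on a log axis, 1 point per library; Timp3 makes up 91.9% or more in kidney, and the ratio is higher on the ketogenic diet in all 3 organs.

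The 3 organs on chow were compared next, a contrast that did not serve to choose the genes. Adjusted p-values are from edgeR's quasi-likelihood test over 15495 genes. Heart and kidney differed in all 10 genes, against 73.8% of all genes, with 8 higher and 2 lower in heart. Heart and liver differed in 9 of 10, against 78.2% of all genes, and kidney and liver in 8 of 10, against 76.4%. The shares were therefore near those of all genes. The labels do not say whether the organs came from the same mice, and with total-count scaling the median of all genes moved to -0.44, 0.62 and 1.07 (log2) in these 3 contrasts, against -0.05, 0.05 and 0.11 with TMM.

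Mmp2 was highest in heart, with 49.4 ± 4.90 CPM per kilobase in chow hearts, against 4.72 ± 0.842 in chow kidneys and 3.70 ± 0.309 in chow livers (SD, n = 3 each). Heart exceeded kidney by 3.39 on the log2 scale (SE 0.16, edgeR adjusted p = 1.55e-12) and liver by 3.74 (SE 0.16, edgeR adjusted p = 4.24e-13). Kidney and liver differed by 0.35 (SE 0.16), which did not pass (edgeR adjusted p = 0.0548) but did with total-count scaling (1.31) and without chow kidney replicate 3 (0.49), ketogenic liver replicate 2 (0.36), ketogenic kidney replicate 3 or chow heart replicate 3 (0.35 each). Mmp14 was lowest in kidney, with 17 ± 1.96 CPM per kilobase in heart, 8.21 ± 0.562 in kidney and 22 ± 1.05 in liver. The heart level minus the liver level was -0.37 (log2, SE 0.10, edgeR adjusted p = 0.002), a direction that turned with total-count scaling (0.21). Adam12 was the kidney gene, at 3.54 ± 0.393 CPM per kilobase, against 0.437 ± 0.0283 in heart and 0.367 ± 0.100 in liver. The log2 difference was -3.02 for heart minus kidney (SE 0.23, edgeR adjusted p = 1.27e-09) and 3.27 for kidney minus liver (SE 0.24, edgeR adjusted p = 6.86e-10). Heart and liver did not differ past the threshold (0.25, SE 0.25), but did with total-count scaling (0.83).

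Adamts2, Adamts12 and Adamtsl2 were highest in heart on chow. Adamts2 reached 18.6 ± 4.54 CPM per kilobase in heart, 4.37 ± 1.02 in kidney and 4.84 ± 0.446 in liver. Heart exceeded kidney by 2.09 (SE 0.20) and liver by 1.95 (SE 0.21) on the log2 scale, with edgeR adjusted p = 7.84e-08 and 1.66e-07. Kidney and liver did not differ past the threshold (-0.15, SE 0.21), and with total-count scaling the value was 0.81 and passed. Adamts12 and Adamtsl2 fell into the order heart, kidney, liver. Their levels were 3.93, 1.81 and 0.724 CPM per kilobase for Adamts12 and 11.7, 6.72 and 1.92 for Adamtsl2, with each neighbouring pair past the threshold.

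The TIMPs split by organ. Timp3 stood at 267 ± 27 CPM per kilobase in chow kidneys, against 41.7 ± 14.9 in chow hearts and 6.72 ± 0.566 in chow livers. Kidney exceeded liver by 5.31 on the log2 scale (SE 0.21, edgeR adjusted p = 1.40e-13), and heart minus kidney was -2.68 (SE 0.19, edgeR adjusted p = 3.51e-10). Timp2 followed the order heart, kidney, liver, at 58.0, 20.7 and 6.40 CPM per kilobase. Timp4 had 583 counts over the chow hearts, 13 over the chow kidneys and 0 over the chow livers. Its heart level was 5.71 above kidney on the log2 scale (SE 0.49, edgeR adjusted p = 2.20e-07) and at least 154-fold higher than in liver, taking 3 counts over the liver group. Kidney was at least 2.90-fold higher than liver on the same floor, a difference that missed the threshold without chow kidney replicate 1 or 2 or any single chow liver. Timp1 had 240, 27 and 3 counts over the chow hearts, kidneys and livers. The ratio of heart to liver was 63.4 (exact 95% interval 21.4 to 309.5), and that of kidney to liver was 6.03 (1.85 to 31.0). Both intervals cover counting error only and not the spread between libraries. Chow heart replicate 3 held 149 of the 240 heart counts. Chow kidney replicate 1 held 18 of the 27 kidney counts. The edgeR log2 difference between kidney and liver was 2.48 (adjusted p = 0.0299), and it no longer passed without that library (1.49) or without chow liver replicate 2 (1.91) or chow liver replicate 1.

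**Figure D4:**
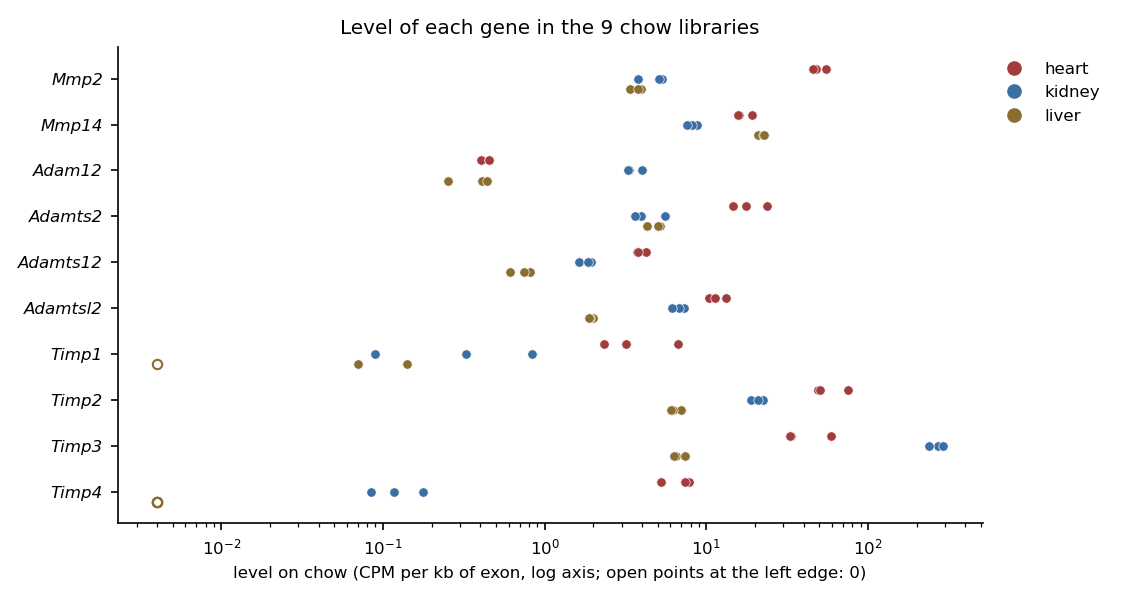
Level of each gene in the 9 chow libraries (horizontal log axis, CPM per kilobase of exon); points are libraries coloured by organ, and open points at the left edge stand for 0. Timp3 in kidney is the highest level shown, Mmp2 is highest in heart, and Timp4 is at 0 in the 3 chow livers.

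The other genes of the pathway were taken as 7 lists with 93 genes. They were also put together with earlier results of these data known. In heart 25 of 75 tested passed as lower, against 12.2% of all genes, and 2 as higher, against 12.5%. In kidney 28 of 77 passed as lower, against 5.45%. In edgeR 0 of the 77 passed as higher, against 3.59%, with 2 at an unadjusted p under 0.05 and 2 by DESeq2. In liver 23 of 64 passed as lower, against 23.3%, and 9 as higher, against 24.3%. The counts of single lists below stand beside the same shares. Because earlier results were known when the lists were made, these counts and the adjusted p-values of list genes are a description. With ketogenic hearts 1 and 2 summed, or without either of them, 14 heart genes passed as lower. Without ketogenic kidney replicate 2 or chow kidney replicate 1, 17 and 15 kidney genes did. All p-values in the following sentences are edgeR's, adjusted over the genes of the organ.

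Of 17 substrates and partners of the proteases tested, 12 passed as lower in heart (median log2 fold change -0.92, against -0.03 for all genes), 10 in kidney (-1.03, against 0.00) and 12 in liver (-1.18, against 0.00), where Dcn, the small proteoglycan decorin, rose. With ketogenic hearts 1 and 2 summed, or without either of them, 6 passed in heart, and without chow kidney replicate 1 or 2, 6 passed in kidney. Col5a1, a chain of the fibrillar collagen V, averaged 111 ± 13.3 CPM in ketogenic hearts (SD, n = 2) and 272 ± 13 CPM in chow hearts (SD, n = 3). Its log2 fold change was -1.25 in heart (adjusted p = 7.51e-05, edgeR), -1.32 in kidney (adjusted p = 0.0064) and -1.65 in liver (adjusted p = 4.98e-07). It passed in each organ under every alternative, as did Col1a2. Col1a2, a chain of collagen I, had log2 fold changes of -1.45 in heart, -1.67 in kidney and -1.67 in liver (edgeR adjusted p = 0.0061, 0.0038 and 2.36e-07). Col4a1, a basement membrane chain, showed -0.92 in heart, -1.29 in kidney and -1.51 in liver (edgeR adjusted p = 0.028, 0.00164 and 2.36e-07). The heart value of Col4a1 no longer passed with the pair summed, without a count filter, or without any single ketogenic heart or chow heart 1 or 2 (-1.14 to -0.75 over all alternatives).

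Among the relatives of the proteases, 13 other Adamts genes were tested in heart and in kidney. Of these, 3 fell in heart, against 12.2% of all genes, and 6 in kidney, against 5.45%. The heart count was 5 by DESeq2, 6 without chow heart replicate 3 and 7 in the model of all 18 libraries. In liver 2 of 11 fell, below the 23.3% of all genes. Adamts17, a secreted relative, fell in heart (log2 fold change -2.17), with 1.15 CPM on the ketogenic diet and 5.62 CPM on chow (edgeR adjusted p = 5.42e-04), and in kidney (-3.47), with 0.398 CPM on the ketogenic diet and 4.45 CPM on chow (edgeR adjusted p = 0.00303). Adamts7 fell in kidney (-0.87) and liver (-1.87) (edgeR adjusted p = 0.00263 and 1.68e-04), and so did Adamts9, at -0.55 in kidney and -1.35 in liver (edgeR adjusted p = 0.00537 and 3.50e-05). These 3 genes passed under every alternative in those organs. Of the other Mmp genes, 1 of 11 tested fell in heart and 1 of 7 in liver, both below the shares of all genes (12.2 and 23.3%), and 2 of 10 fell in kidney, against 5.45%. These were Mmp16 in heart (-1.23), Mmp15 and Mmp11 in kidney (-0.96 and -0.70) and Mmp19 in liver (-0.75). In liver 1 of 7 rose, Mmp27 (1.04), against 24.3% of all genes higher, and it passed under 4 of 13 alternatives. Mmp16 no longer passed with ketogenic hearts 1 and 2 summed, without any single ketogenic heart or with the replicate block. Mmp15 was lost without chow kidney replicate 3, and Mmp11 without chow kidney replicate 1 or 3. Of the other Adam genes, 3 of 8 fell in heart, against 12.2% of all genes, 2 of 9 in kidney, against 5.45%, and 2 of 7 in liver, near the 23.3% of all genes. With ketogenic hearts 1 and 2 summed, or without either of them or chow heart replicate 2, 1 fell in heart. Adam19, a relative of Adam12, was among those that fell in each, with log2 fold changes of -1.12, -1.04 and -0.54 (edgeR adjusted p = 4.78e-05, 0.0163 and 0.0175). The heart value passed under every alternative, the kidney value not with the replicate block or without chow kidney replicate 1 or 3, and the liver value not without ketogenic liver replicate 2. Of the other Adam genes in liver, 1 of 7 rose, Adam33 (1.31), against 24.3% of all genes higher. It passed under 5 of 13 alternatives. Of the Adamts-like genes, 1 of 6 in heart, Adamtsl5 (0.41), and 1 of 6 in kidney, Thsd4 (-0.46), passed, and each call was lost under 6 or more alternatives, among them leaving out any of several single libraries. The lowest edgeR adjusted p of the 5 tested in liver was 0.105.

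Other inhibitors and enhancers went in different directions. Pcolce, the enhancer of procollagen C-proteinase, fell in all 3 organs, at -0.74 in heart, -0.69 in kidney and -0.67 in liver (edgeR adjusted p = 7.36e-04, 0.00234 and 0.00134), under every alternative. So did the proteinase itself, Bmp1, at -0.79, -0.67 and -0.49 in the same order (edgeR adjusted p = 4.32e-04, 0.0207 and 7.25e-04), though the kidney call was lost when any of 4 single libraries was left out. As a whole, the list of inhibitors, enhancers and clearance genes had 1 lower and 1 higher of 8 in heart, 3 lower of 8 in kidney, and 2 lower and 3 higher of 7 in liver. Among other matrix proteases, 5 of 12 fell in heart, with Bmp1, Plat, Ctss and Ctsk first, and 4 of 14 fell in kidney, with Mep1b (-0.63), Bmp1, Plau (-0.56) and Ctsk (-0.91). In kidney both lists had 1 lower call without ketogenic kidney replicate 2 or 3 or chow kidney replicate 1 or 3. In liver 4 of 10 fell, Plg, Ctsb, Bmp1 and Ctsl, and 3 rose, Htra3, Ctss and Plau, against 24.3% of all genes; the call of each of the 3 was lost without some single libraries.

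Cell type markers were also summed by list in each library. Their counts are given beside the same shares of all genes, as a description. These are 12.2, 5.45 and 23.3% lower and 12.5, 3.59 and 24.3% higher in heart, kidney and liver. The 9 fibroblast markers summed to 1207, 1225 and 1161 CPM in ketogenic hearts, against 1788, 1856 and 2625 CPM in chow hearts. In kidney they summed to 428, 330.3 and 431 CPM on the ketogenic diet, against 1133, 743 and 756 CPM on chow. In liver they summed to 233, 225 and 201 CPM on the ketogenic diet, against 214, 230.1 and 240.2 CPM on chow. The sums did not overlap in heart and kidney and overlapped in liver, and no marker of the list was at 0. Of the 9 markers, 5 fell in heart (Postn, Lum, Thy1, Col1a1 and Dpt), 3 in kidney (Col1a1, Pdgfrb and Tcf21) and 3 in liver (Col1a1, Postn and Pdgfrb), where Dcn and Dpt rose. Without Col1a1 and Dcn, which are also in the substrate list, the sum in heart was 399 to 448 CPM on the ketogenic diet and 656 to 826 CPM on chow. The same sum was 229 to 305 CPM on the ketogenic diet and 296 to 388 CPM on chow in kidney, and 50.7 to 57.0 CPM on the ketogenic diet and 59.0 to 70.2 CPM on chow in liver. Computed this way the diets did not overlap in heart and liver and overlapped in kidney. All 8 macrophage markers fell in heart, where they summed to 344 to 354 CPM on the ketogenic diet and 560.4 to 639.9 CPM on chow. In kidney 0 of the 8 passed in edgeR, and in liver 2 passed as higher, Mrc1 (0.43) and Lyz2 (1.53). Hepatic stellate markers in liver summed to 374 to 383 CPM on the ketogenic diet and 380 to 427 CPM on chow. Of those 6 markers 1 was lower and 1 higher. Smooth muscle and pericyte markers summed to 635 to 789 CPM in ketogenic hearts and 1068 to 1258 CPM in chow hearts, with 2 of 6 lower. In kidney the same 6 markers summed to 189 to 225 CPM on the ketogenic diet and 243 to 542 CPM on chow. Of these Tagln had the lowest edgeR adjusted p, 0.0606, and did not pass. Erythroid markers in heart summed to 608 to 1541 CPM on the ketogenic diet and 2888 to 3923 CPM on chow, with 4 of 6 lower. Cardiomyocyte markers summed to 66464 to 68454 CPM in ketogenic hearts and 52615 to 61265 CPM in chow hearts, with 1 of 6 higher. Hepatocyte markers in liver summed to 69134 to 73942 CPM on the ketogenic diet and 111128 to 120376 CPM on chow, with 4 of 5 lower. The part of any of these cell types in the differences of the 10 genes was not tested.

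**Figure D5:**
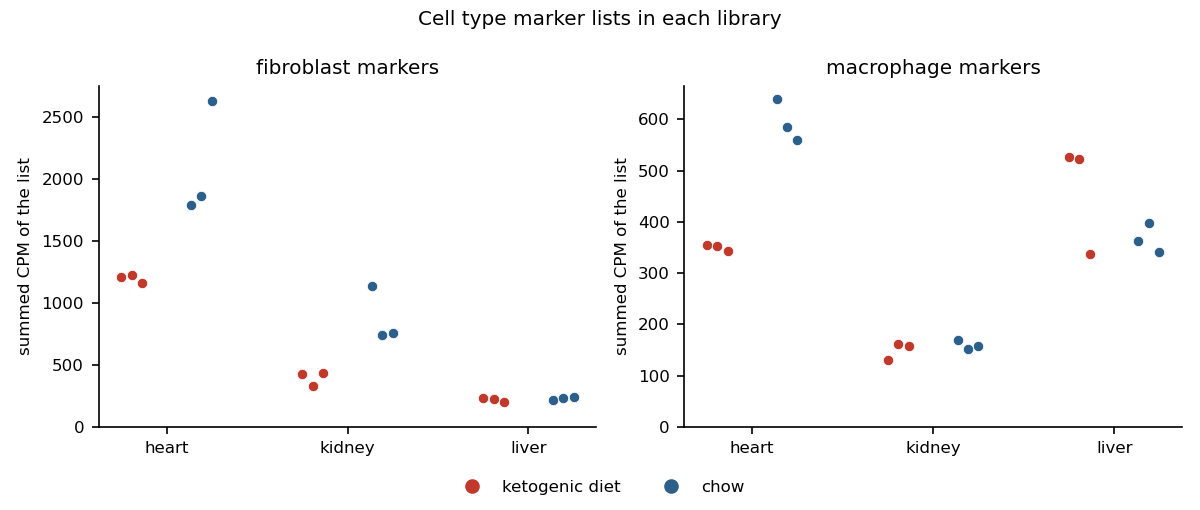
Summed CPM of 9 fibroblast markers (left) and 8 macrophage markers (right) in each ketogenic and chow library of heart, kidney and liver. Fibroblast markers are lower on the ketogenic diet in heart and kidney and overlap in liver, and macrophage markers are lower in heart.

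Each gene was last compared with 14211 other genes by the root mean square distance between centred log2 CPM profiles over the 18 libraries. The nearest gene to Adamts2 was Col5a1, at 0.296, against a median of 1.31 over all candidates, and the nearest to Adamts12 were C1qtnf6 (0.350) and Loxl2 (0.376), a collagen crosslinking enzyme. Timp2 lay nearest to Rftn2 (0.164) and Sept8 (0.219), and Timp3 to Igf1r (0.313) and Trps1 (0.314). Mmp14 lay nearest to Arhgap19 (0.291), Adamtsl2 to Clic1 (0.363), Mmp2 to Parvb (0.487), Timp4 to Rbp7 (0.552), Timp1 to Crip1 (0.575) and Adam12 to Vps37d (0.636). These distances are set mostly by differences between organs, share all 18 libraries and are a description.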

How the data were processed

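Messenger RNA of heart, kidney and liver was sequenced from stranded libraries made from RNA with an integrity number above 4, per the labels' protocols. Per the submitters' processing notes, bcl2fastq, HISAT2 2.1.0, SAMtools and featureCounts 1.5.0 were used. Per the file headers, read pairs were counted on exons of the mm9 UCSC annotation with strand setting 2 and a minimum mapping quality of 2, and reads with several placements were split. The deposited values are therefore estimated counts, of which at most 0.0297% of any of the 10 genes came in fractions. They were rounded to whole numbers. No exon of these genes overlaps another gene. Coordinates of genes are mm9; promoters come from RefSeq's GRCm38.p6 table and were not placed on mm9.

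The 10 genes, the lists and the tests were chosen with earlier results of these data known. Per organ, genes passing filterByExpr were scaled by TMM and tested with edgeR 4.0.16 (quasi-likelihood, robust, R 4.3.3), with Benjamini-Hochberg adjustment and a threshold of 0.05. Every library entered these tests as a separate sample, the near-identical ketogenic heart and liver pairs included. Log2 fold changes are ketogenic minus chow, and each SE is the fold change over the root of its F statistic. Organ contrasts used 1 model of all 18 libraries. CPM use the TMM-scaled library size; levels per kilobase use the scaling over all libraries. Limits on a count of 0 take 3 counts; intervals are exact binomial at 95% and cover counting error only. The labels call replicates biological without naming animals. The text names all 10 genes, up to 4 genes per list and organ with the smallest adjusted p, and the nearest profiles; Dcn, Plau and other list or marker genes outside that rule were named after their values were seen. Not every list gene covered by the rule is reported here. The edgeR fitting steps were also run on simulated counts, with libraries drawn independently. Near-identical pairs were not simulated, known changes were placed only in genes above a minimum level, and the outcome is not given here. Alternatives were DESeq2 1.42.0, RLE and total-count scaling, no filter, a CPM of 1 in 3 libraries, a replicate block, summed ketogenic pairs, leaving out each library, and 1 model for all.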

Additional observations from a re-analysis of the deposited data

Results flagged for a closer look

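Differences between organs in the diet's log2 fold change passed edgeR's threshold for 4 of the 10 genes. They are built from the contrasts that served to choose the genes and are values only. For Adamtsl2 the difference was -1.64 between heart and kidney, -2.29 between heart and liver, and -0.65 between kidney and liver. For Adam12 it was 1.29 between heart and liver, where the gene fell in both organs. For Timp2 it was -0.67 between heart and liver, and for Timp1 it was -3.64, with 10 counts over the ketogenic livers and 3 over the chow livers.

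The Adamtsl2 differences passed under all alternatives tried. Those of Adam12, Timp1 and Timp2 lost the threshold when some single libraries were left out, and in part with the ketogenic pair summed or with total-count scaling.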

How the results depend on the processing

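Mmp2 and Mmp14 in all 3 organs, Adamts2, Adamts12 and Adamtsl2 in heart and liver, Adam12 in kidney and liver and Timp4 in heart kept their direction and passed under every alternative; no diet fold change of the 10 genes changed sign. Total-count scaling reversed 2 chow contrasts, Mmp14 between heart and liver (0.21) and Adamts2 between kidney and liver (0.81); the cause was not tested. It moved the median of all genes in heart to -0.16 and the share of calls that were higher to 23.4% in heart and 25.3% in kidney, against 50.5% and 39.7%.

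Of all genes, 3317 passed in heart, 1642 with the ketogenic pair summed and 1583 to 4689 with single libraries left out. In kidney 1314 passed, 412 to 3402 with single libraries left out. With the replicate number as a block 2732 passed in heart, 810 in kidney and 6174 in liver, against 6164 in liver without it. Same-numbered libraries showed little shared deviation (correlations of 0.01 to 0.10 in heart, -0.18 to 0.05 in kidney and 0.00 to 0.11 in liver). This gives no sign that the numbers pair the samples. With 3 libraries per group, compared within each organ, it cannot exclude a pairing.

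Over the 7 lists, lower calls in heart were 14 with the pair summed and 14 to 32 with single libraries left out, and in kidney 15 to 30. Higher calls in heart were 1 with the pair summed, with total-count scaling and in the model of all 18 libraries, and 1 to 7 with single libraries left out. In kidney they were 2 by DESeq2, 1 with the block, 1 in that model and 0 to 3 with single libraries left out. In liver they were 5 with the pair summed, 2 in that model and 4 to 9 with single libraries left out. Genes with organ differences in the diet effect numbered 2 by DESeq2 and 1 to 2 with single libraries left out between heart and kidney, 2 with the pair summed and 1 to 4 between heart and liver, and 1 to 2 between kidney and liver. Depth limits Timp1 and Timp4 outside heart and Adam12 in liver.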
